A study of Mus musculus with 10 samples.

Results

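Genes that lie along mouse chromosomes 3 and 5 were followed through 10 RNA-seq libraries of 4T1 tumours. The members were the protein-coding genes of these chromosomes, by the GENCODE M21 annotation of the GRCm38 genome, whose mean log2(normalized count + 1) over the 10 libraries was over 6, so they were chosen by position and by their measured level, and the chromosomes by how the KO libraries deviated there. They numbered 1256 of 11079 protein-coding genes over that level in the genome, among 18012 genes in the table. Chromosome 3 held 552 of them, from 702 protein-coding genes in the table, and chromosome 5 held 704, from 865. The remaining 311 genes were at or below the level and are described only where named. The level threshold was passed most narrowly by Chrnb2 (6.003) and Auts2 (6.01), and missed most narrowly by Mme (5.99) and Zfp11 (5.99).

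The 4T1 line comes from a mammary carcinoma of the BALB/c strain. Wild-type (WT) cells and cells in which 1 gene was knocked out (KO) were implanted into BALB/c mice, grew for 3 weeks, and gave 5 libraries each from frozen tumour sections. All libraries shared the line, the host strain, the time in the mouse and the batch label. The labels say neither whether the KO line was 1 clone or several, nor which mouse gave which library, so the spread between libraries may be partly technical. In bulk tumour RNA, fewer cells of a type and less RNA per cell cannot be told apart.

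Neighbouring genes of a chromosome share its number of copies, which in tumour lines often departs from that of normal cells. Neighbours also share chromatin domains and replication timing, and they tend to share base composition. RNA levels are therefore often compared along chromosomes, after the changes common to all genes have been removed. Here each gene's log2 value in a library was taken as its deviation from the gene's mean over the 10 libraries, less the library's median deviation over all genes above the level. The deviations were summarised as medians in 15 Mb windows, numbered from the start of each chromosome. Of 22 windows, 21 held at least 10 members, and window 11 of chromosome 5 held 7.

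In windows 5 and 10 of chromosome 3 and window 6 of chromosome 5, the 250 bases before the RefSeq start (build GRCm38.p6) are printed for a gene that followed its window closely, because these genes carry the pattern described next. It is the closest of the named genes of that window with at most 30 of those bases inside the annotated gene. Kpna4, an importin alpha that carries proteins into the nucleus, starts in window 5 of chromosome 3 (stretch chr3:69127093-69127342, minus strand). Pkn2, a serine and threonine protein kinase, starts in window 10 of chromosome 3 (stretch chr3:142882005-142882254, minus strand). Cenpc1, a centromere protein of the inner kinetochore, starts in window 6 of chromosome 5 (stretch chr5:86065584-86065833, minus strand). All are written 5′ to 3′ on the gene's strand, with matches to the searched motifs in capitals.
Kpna4: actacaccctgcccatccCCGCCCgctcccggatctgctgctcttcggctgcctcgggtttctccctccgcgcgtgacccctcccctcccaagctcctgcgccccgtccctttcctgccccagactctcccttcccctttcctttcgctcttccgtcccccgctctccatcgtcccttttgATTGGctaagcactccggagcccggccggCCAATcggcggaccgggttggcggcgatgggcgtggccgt
Pkn2: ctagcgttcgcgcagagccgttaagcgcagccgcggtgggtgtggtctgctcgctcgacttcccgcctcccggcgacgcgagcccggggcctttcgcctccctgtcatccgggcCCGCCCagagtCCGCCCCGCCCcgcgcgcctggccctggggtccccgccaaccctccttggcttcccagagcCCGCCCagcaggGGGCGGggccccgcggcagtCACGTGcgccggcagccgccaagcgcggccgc
Cenpc1: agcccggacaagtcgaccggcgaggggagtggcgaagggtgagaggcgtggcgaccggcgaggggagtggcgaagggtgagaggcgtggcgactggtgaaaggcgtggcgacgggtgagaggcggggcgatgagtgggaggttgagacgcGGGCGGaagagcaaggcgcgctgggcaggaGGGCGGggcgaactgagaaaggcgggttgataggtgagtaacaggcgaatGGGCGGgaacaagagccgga

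The motifs, searched on both strands, were TATAAA (the TATA box), CCAAT (the CCAAT box), GGGCGG (the GC box) and CACGTG (an E box). None contains another, but copies of GGGCGG can overlap, as they do in the Pkn2 stretch. Of the 1256 members, 1043 had such a stretch in RefSeq. GGGCGG or its complement lay in 61.2% of them, against 61.3% of 7731 stretches of genes over the level on the other autosomes and X and 44.5% of 16521 protein-coding genes in all. TATAAA lay in 6.71%, against 6.11% and 11.9%. CCAAT lay in 33.1%, 36.8% and 36.1%, and CACGTG in 8.34%, 8.51% and 6.79%. Pooled, the members differed little in these letters from other genes of similar level, but the pooled shares cover chromosomes that differed from each other. GGGCGG lay in 56.3% of the stretches of chromosome 3 and 64.8% of those of chromosome 5, and TATAAA in 8.07% and 5.7%. CCAAT lay in 34.3% and 32.2%, and CACGTG in 8.74% and 8.04%. The median GC content of the stretches was 59.2% and 62.4%, against 60% for genes over the level on the other autosomes and X. A match is a description of the sequence only.

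The libraries held between 8596772 and 19879472 reads on genes. KO1 (8596772) and KO3 (9492502) were the shallowest, followed by WT3 (11745496), and KO2, KO4 and KO5 held 13517979 to 16012246. Library values also leaned on gene content: across genes over the level, deviations correlated with GC content most negatively in WT5 (-0.54) and most positively in WT4 (0.63), and with log2 exon length most negatively in WT2 (-0.48) and most positively in KO1 (0.56). Since windows differ in GC content, the chromosome medians and, for each described window, the medians, range or difference are given also with spline trends on GC content and length removed from every library, called corrected below. Names of KO5 and WT1 to WT4 carry a prefix that the labels do not explain. It falls on all WT libraries but WT5 and, among KO libraries, on KO5 only. Whatever it marks is therefore largely confounded with KO against WT. The libraries also differed in cell content: the mean log2 level of 17 carcinoma and epithelial markers ran from 7.61 in KO2 to 9.82 in WT3 (KO5 7.93, WT5 8.88), and that of 11 T and NK cell markers from 4.76 in WT5 to 7.04 in KO5. The 8 adipocyte markers were at 4.28 in KO2 and 3.51 in KO5 and at 6.49 to 9.79 in the others. Keratinocyte markers (10 genes) were at 6.26 to 9.61 in WT2, WT3 and WT5 and at 1.05 to 2.51 elsewhere. The same level for 10 skeletal muscle markers was 4.58, 8.58, 2.10, 8.04 and 7.48 in KO1 to KO5, 1.83 in WT3 and 8.05 to 12.7 in the other WT libraries. The part of these differences in the results below was not tested.

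On chromosome 3 the KO libraries spread most between KO2 and KO3. The median deviation of its 552 members was -0.05, 0.09, -0.18, -0.01 and 0.07 in KO1 to KO5, and 0.12, 0.00, -0.03, -0.16 and 0.16 in WT1 to WT5. KO3 was the lowest of all 10 libraries and WT5 the highest, and the groups overlapped. The range of the KO libraries was 0.28, the second widest of 20 chromosomes, and that of the WT libraries 0.32, also the second widest. With GC and length trends removed the KO medians were -0.11, 0.09, -0.18, -0.02 and 0.04, and the WT medians 0.08, 0.04, -0.01, -0.01 and 0.04. The KO range was then 0.26 (rank 3) and the WT range 0.09 (rank 10), so the KO order held under the correction while most of the WT spread did not. Without KO3 the KO range of chromosome 3 was 0.14, and without WT4 the WT range was 0.17.

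On chromosome 5 KO2 and KO3 lay on the sides of 0 opposite to those on chromosome 3. The median deviation of its 704 members was 0.14, -0.17, 0.12, -0.06 and -0.15 in KO1 to KO5, and 0.01, -0.03, 0.04, 0.09 and -0.00 in WT1 to WT5. KO1 and KO3 lay above all WT libraries and KO2, KO4 and KO5 below all of them. KO1 and KO3, which also had the lowest KO medians on chromosome 3, were the KO libraries with the lowest skeletal muscle marker levels. Other lists split the KO libraries too: KO2 and KO5 had the lowest carcinoma (7.61 and 7.93) and adipocyte (4.28 and 3.51) marker levels among them. The WT libraries with the lowest and highest muscle levels, WT3 (1.83) and WT2 (12.7), had chromosome 5 medians of 0.04 and -0.03. The part of muscle RNA and of other cell content was not tested. The KO range of 0.30 was the widest of 20 chromosomes, and the WT range of 0.12 was the 18th. With the trends removed the KO medians were 0.10, -0.17, 0.07, -0.04 and -0.08, the WT medians 0.03, 0.05, -0.00, 0.01 and 0.01, and the ranges 0.26 (second widest) and 0.06 (16th). Without WT4 the WT range was 0.07 before correction. Each KO library is 1 tumour sample, so differences among them carry no replicate error and were not tested.

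**Figure D1:**
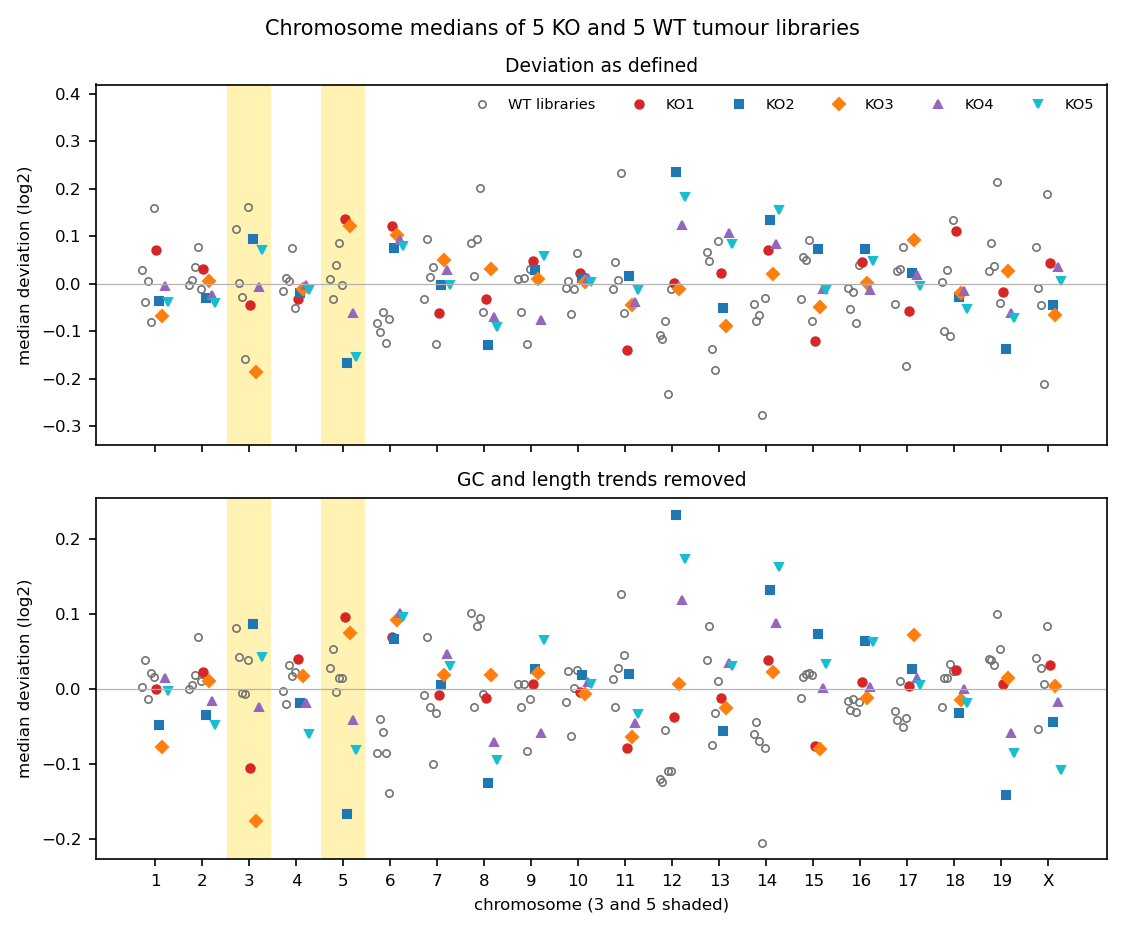
Median deviation (log2) of protein-coding genes over the level, by chromosome (x axis), for 5 KO libraries (coloured symbols) and 5 WT libraries (open circles), as defined (top) and with GC and length trends removed (bottom). On shaded chromosomes 3 and 5 KO2 and KO3 sit on opposite sides of 0 and exchange places, at 0.09 and -0.18 on chromosome 3 and -0.17 and 0.12 on chromosome 5.

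Gene by gene the same shift was broad rather than carried by a few genes. KO2 was above KO3 in 435 of 552 members of chromosome 3 (78.8%, background 49.6% of genes over the level), with a median difference of 0.27 log2 (1.21-fold) and a middle range of 0.07 to 0.48. On chromosome 5 it was above KO3 in 144 of 704 members (20.5%), with a median of -0.28 and a middle range of -0.55 to -0.06. On the 9809 genes of the other autosomes and X the share was 50.05% and the median 0.00. That pooled value covers chromosomes with shifts of their own. KO2 and KO3 had median deviations of 0.24 and -0.01 on chromosome 12 and 0.07 and -0.05 on chromosome 15. They lay in the other order on chromosomes 8 (-0.13 and 0.03) and 19 (-0.14 and 0.03). Corrected, chromosome 12 had the widest KO range of 20 chromosomes, 0.27. KO1 was above KO2 in 548 of 704 members of chromosome 5 (77.8%, median 0.31, 1.24-fold) and in 194 of 552 of chromosome 3 (35.1%, median -0.13). KO2 was below KO1 in 50.7% of genes over the level. Corrected, KO2 was above KO3 in 433 of 552 members of chromosome 3 (78.4%, background 51.2%) and 161 of 704 of chromosome 5 (22.9%), and below KO1 in 554 of 704 of chromosome 5 (78.7%, background 50.3%). KO3 was the lowest KO library in 219 members of chromosome 3 (39.7%, background 21.3%; corrected 217, background 22.3%). KO2 was the lowest in 212 of chromosome 5 (30.1%, background 11.6%; corrected 247, background 14.2%) and the highest in 130 of chromosome 3 (23.6%, background 9.77%; corrected 173, background 14.3%). KO5 held both places in more members than KO2. In window 10 of chromosome 5 KO5 was the lowest in 68 of 150 members and KO2 in 32. In window 7 of chromosome 3 KO5 was the highest in 52 of 133 and KO2 in 38. Corrected, KO5 exceeded KO2 in this only on chromosome 3. The share of KO5 over all genes was not counted. Since the chromosomes were chosen with these values known, the shares are descriptions.

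**Figure D2:**
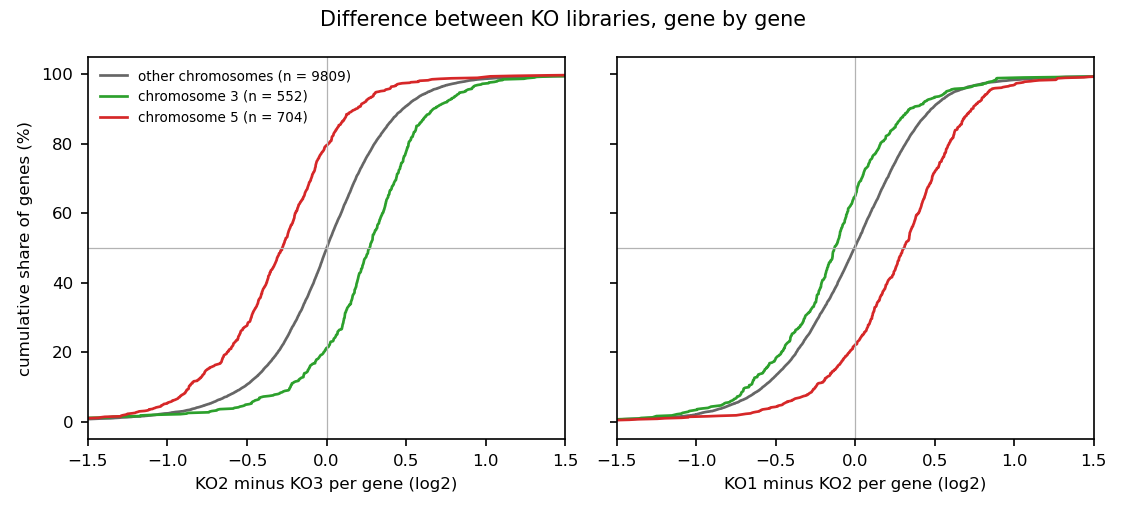
Cumulative share of genes (y axis, percent) by the difference between 2 KO libraries (x axis, log2), KO2 minus KO3 (left) and KO1 minus KO2 (right), for members of chromosome 3, members of chromosome 5 and genes of the other autosomes and X. The curve of chromosome 3 is displaced to the right and that of chromosome 5 to the left for KO2 minus KO3, with medians of 0.27 and -0.28, and the whole curves are displaced.

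Along chromosome 3 KO3 was the lowest KO library in 11 of 11 windows (background 35.0% of 180 windows in the genome), from -0.44 in window 5 to -0.03 in window 2. WT4 was below 0 in 10 of 11 windows (5 after correction). In windows 1, 2, 3, 10 and 11 WT4 lay below KO3 (-0.42 against -0.12 in window 1), so KO3 was within the WT values there. KO2 was at or above 0 in all 11, between 0.00 and 0.14, and was the highest KO library in 7 (background 16.1%). Corrected, KO3 was the lowest in 8 of 11 (background 23.9%) and below 0 in 11. The remaining lowest places went to KO1 in 2 windows and KO5 in 1. Over the 43 members of the first 30 Mb the median of KO3 was -0.11, against -0.19 over the 509 members beyond, a boundary chosen after the windows were seen. Corrected, these were -0.01 and -0.19. Genes outside the rule gave other values: in protein-coding genes of a log2 level of 3 to 6 KO3 was at -0.44 in the first stretch (10 genes) and -0.12 beyond (117 genes; corrected -0.36 and -0.07), and in genes that do not code for protein at -0.28 (21 genes) and -0.22 (313 genes; corrected -0.15 and -0.20).

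**Figure D3:**
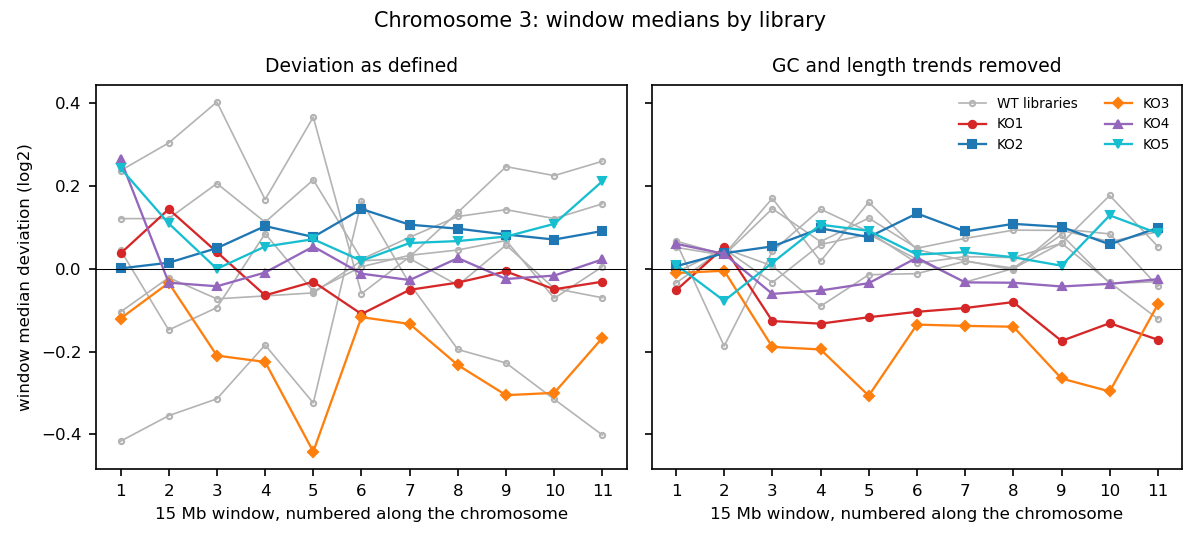
Window medians of deviation (y axis, log2) along chromosome 3 (x axis, 15 Mb window number) for 5 KO libraries (coloured) and 5 WT libraries (grey), as defined (left) and corrected (right). KO3 lies lowest among KO libraries in 11 of 11 windows on the left and in 8 on the right, and the grey WT lines draw together after correction.

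Window 5 of chromosome 3 (60 to 75 Mb, 23 members) had the widest KO range of both chromosomes, 0.52. Its medians were -0.03, 0.08, -0.44, 0.05 and 0.07 in KO1 to KO5 and 0.22, -0.05, -0.06, -0.32 and 0.37 in WT1 to WT5. Corrected, the KO medians were -0.12, 0.08, -0.31, -0.03 and 0.09. KO3 was the lowest KO library in 17 of its 23 members. Kpna4 (chr3:69067149-69127113) followed the window most closely, with a correlation of 0.93 with the median of the other members over 10 libraries. It had 3246, 3073, 2310, 3131 and 3798 normalized counts in KO1 to KO5 and 3501, 3101, 2792, 2829 and 4424 in WT1 to WT5. KO3 was the lowest of all 10 libraries for this gene, and KO2 was 1.33-fold above it.

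Ift80, a subunit of the transport particle that builds cilia, had 699, 851, 495, 833 and 806 normalized counts in KO1 to KO5 and 933, 748, 833, 746 and 1126 in WT1 to WT5. Its neighbour Smc4 (chr3:69004738-69034623), an ATPase subunit of condensin that compacts mitotic chromosomes, had 3472, 3556, 2358, 3758 and 5336 in KO and 4838, 4589, 3287, 3303 and 5622 in WT libraries. Both were lowest in KO3 of all 10, by 1.72-fold and 1.51-fold against KO2. The 2 members with the highest level were Mbnl1, a regulator of splicing, and Ssr3, a subunit of the translocon-associated complex of the endoplasmic reticulum. Mbnl1 differed by only 1.02-fold between KO2 and KO3, and Ssr3 by 1.43-fold. B3galnt1, which makes the globoside glycolipid, was the member least like its window (correlation 0.08).

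In window 10 of chromosome 3 (135 to 150 Mb, 51 members) the medians were -0.05, 0.07, -0.30, -0.02 and 0.11 in KO1 to KO5 and 0.12, -0.07, -0.05, -0.32 and 0.23 in WT1 to WT5. The corrected KO range, 0.43, was close to the range before correction, 0.41. Ube2d3, a ubiquitin-conjugating enzyme with broad use, had 6841, 6778, 5486, 7008 and 8195 normalized counts in KO libraries and 8119, 7759, 6888, 5773 and 8687 in WT libraries. Cenpe, a kinesin that moves chromosomes to the spindle equator, had 2082, 1878, 1202, 1907 and 1775 in KO and 2805, 1516, 1678, 1639 and 3526 in WT. For Pkn2 the KO values were 2933, 2798, 2313, 2802 and 3197 and the WT values 3228, 2475, 2471, 2415 and 4296. KO3 was the lowest of 10 libraries in each of these 3 genes. Manba, a lysosomal mannosidase, ran against its window (correlation -0.24), although it too was 1.34-fold higher in KO2 than in KO3.

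Window 9 (120 to 135 Mb, 46 members) had KO medians of -0.01, 0.08, -0.31, -0.02 and 0.08 and WT medians of 0.14, 0.07, 0.06, -0.23 and 0.25. Corrected, the KO medians were -0.17, 0.10, -0.26, -0.04 and 0.01. KO3 was the lowest KO library in 23 of its members. Gclm, the modifier subunit of the enzyme that starts glutathione synthesis, had 324, 375, 260, 358 and 433 normalized counts in KO and 396, 370, 330, 399 and 505 in WT libraries, lowest in KO3. Fam241a had 76.9, 91.9, 36.6, 95.0 and 88.2 in KO and 80.6, 106, 65.1, 65.2 and 107 in WT, with KO2 2.51-fold above KO3. Slc44a3, a choline-transporter-like protein, was the least alike (correlation -0.41), with its highest KO value, 145, in KO3.

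Window 1 of chromosome 3 (21 members) was described because its KO mean was 0.11 above its WT mean, but the libraries overlapped (KO -0.12 to 0.26, WT -0.42 to 0.24), and the corrected difference was -0.03. Lrrcc1, a centrosome protein, had 649, 665, 502, 774 and 925 normalized counts in KO and 796, 654, 514, 415 and 876 in WT libraries. E2f5, a repressor of the cell cycle that lies beside it, had 323, 380, 321, 438 and 433 in KO and 391, 415, 263, 265 and 461 in WT. E2f5 shares 26 exonic bases with 1810022K09Rik. In both genes WT3 and WT4 were the lowest WT libraries and KO4 and KO5 the highest KO libraries.

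Along chromosome 5 KO2 was below 0 in 10 of 10 windows, between -0.24 and -0.13, and KO5 was too, between -0.19 and -0.01. KO2 was the lowest KO library in 6 windows (background 18.3%) and KO5 in 4 (background 21.1%), while KO1 was the highest in 5 (background 34.4%) and KO3 in 5 (background 16.7%). Corrected, KO2 was the lowest in 9 of 10 (background 27.8%) and KO1 the highest in 8 (background 25.6%). Over the 237 members of the first 75 Mb the median of KO3 was 0.04, and over the 467 members beyond 0.16, a boundary again chosen after the windows were seen. KO1 had 0.12 and 0.14, above 0 in both stretches. In the first it lay between WT1 (0.10) and WT5 (0.17), so within the WT values. In the second it was little above the highest WT library, WT4 (0.13). Corrected, KO3 had 0.01 and 0.12 and KO1 0.03 and 0.14, so over all members the step of KO1 was wider after correction. Before correction other gene sets also gave a step of KO1. It had 0.10 and 0.18 in members of a log2 level over 8 and -0.01 and 0.11 in protein-coding genes of 3 to 6. In genes that do not code for protein it had 0.09 and 0.19. The corrected WT medians ran from -0.01 to 0.14 in the first stretch and from -0.02 to 0.02 beyond. KO2 had corrected medians of -0.17 and -0.16 in the same stretches, so its displacement ran along the whole chromosome.

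**Figure D4:**
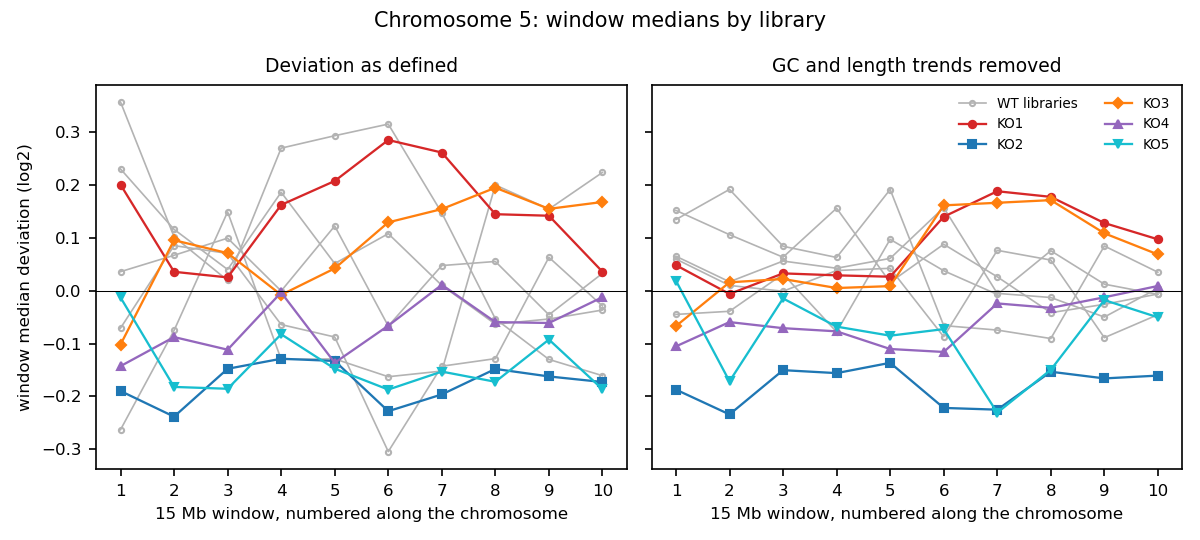
Window medians of deviation (y axis, log2) along chromosome 5 (x axis, 15 Mb window number; window 11 is left out with 7 members) for 5 KO libraries (coloured) and 5 WT libraries (grey), as defined (left) and corrected (right). KO2 stays between -0.24 and -0.13 on the left, and on the right KO1 and KO3 step up from window 6 on.

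Window 6 of chromosome 5 (75 to 90 Mb, 26 members) had a KO range of 0.51. Its medians were 0.28, -0.23, 0.13, -0.07 and -0.19 in KO1 to KO5 and 0.11, -0.30, -0.07, -0.16 and 0.32 in WT1 to WT5. Corrected, the KO medians were 0.14, -0.22, 0.16, -0.12 and -0.07. KO1 was the highest KO library in 15 of its 26 members and KO2 the lowest in 11. Polr2b (chr5:77310147-77349324), the second largest subunit of RNA polymerase II, had 1679, 1125, 1512, 1416 and 1104 normalized counts in KO and 1640, 1050, 1286, 1441 and 1852 in WT libraries. Its correlation with the window was 0.94. It shares 85 exonic bases with Igfbp7, a secreted protein that binds insulin-like growth factors, and without strand information those reads cannot be assigned.

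Cenpc1 had 1022, 714, 849, 729 and 651 normalized counts in KO and 1039, 595, 820, 686 and 1185 in WT libraries. Uba6, an enzyme that activates ubiquitin, had 2701, 1664, 2361, 2176 and 2314 in KO and 2502, 1438, 1752, 1573 and 3269 in WT. In Cenpc1 and Uba6, as in Polr2b, KO1 was the highest KO library and WT2 the lowest of the WT libraries. Igfbp7 itself had a correlation of -0.37 with the window, and Noa1, a mitochondrial GTPase, -0.47.

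Window 7 of chromosome 5 (90 to 105 Mb, 62 members) had KO medians of 0.26, -0.20, 0.15, 0.01 and -0.15 and WT medians of 0.01, -0.14, 0.05, -0.15 and 0.15. Corrected, the KO range was 0.42 and the WT range 0.15. KO1 was above KO2 in 52 of its 62 members. Mthfd2l (chr5:90931117-91021368), a mitochondrial enzyme of folate metabolism, had 910, 389, 689, 600 and 499 normalized counts in KO and 721, 554, 604, 474 and 722 in WT libraries. KO1 and KO2 were the highest and the lowest of 10 and differed 2.34-fold.

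Rassf6, a Ras-association domain protein of the Hippo pathway, had 190, 103, 187, 146 and 113 normalized counts in KO and 146, 88.3, 160, 106 and 155 in WT libraries. G3bp2, a core protein of stress granules, had 2002, 1162, 1772, 1541 and 1494 in KO and 1548, 1391, 1474, 1734 and 1980 in WT. Ankrd17, one of the most abundant members there, had 6432, 3888, 5402, 3638 and 3386 in KO and 5062, 2593, 5060, 4631 and 5854 in WT. KO1 was the highest KO library in each of the 3 and KO3 the next. Spp1, osteopontin, had the highest level of the window and did not follow it (correlation 0.20), with 32473 to 50047 in KO and 21590 to 38967 in WT libraries. Pf4, a platelet chemokine, was the least alike (correlation -0.61).

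**Figure D5:**
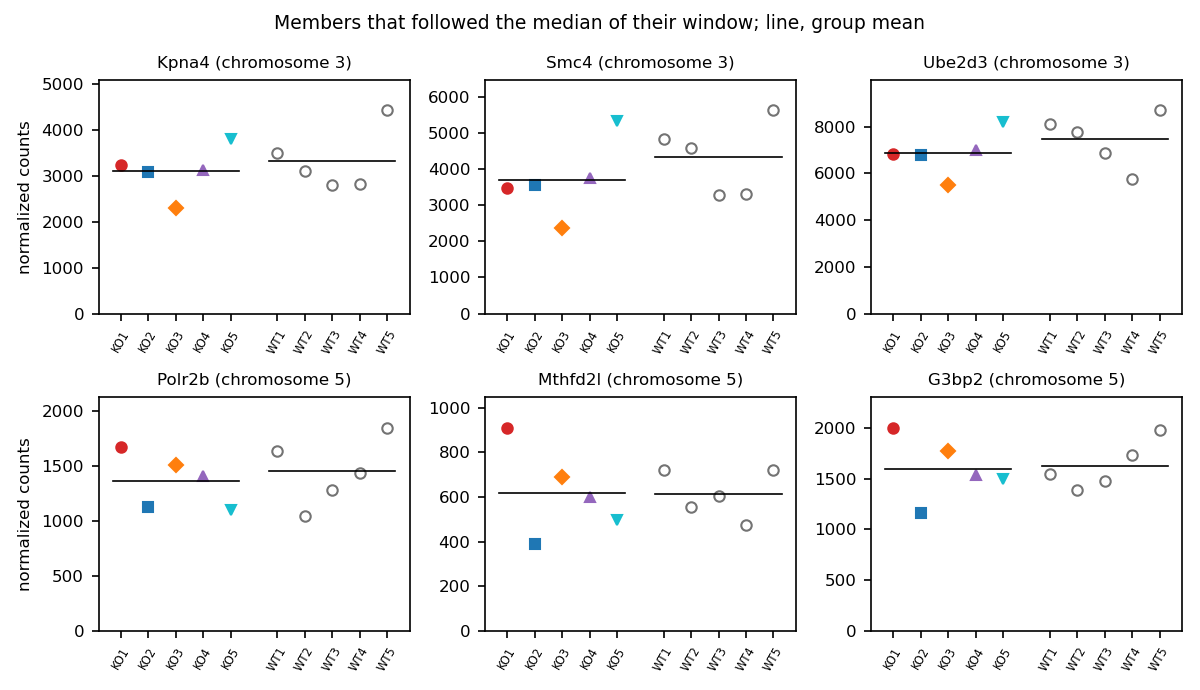
Normalized counts (y axis, from 0) of 6 members by library (x axis), KO libraries as coloured symbols, WT libraries as open circles, with the group mean as a line. Kpna4, Smc4 and Ube2d3 of chromosome 3 have their lowest value in KO3, and Polr2b, Mthfd2l and G3bp2 of chromosome 5 have their highest KO value in KO1, while KO and WT libraries overlap in all 6.

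Window 1 of chromosome 5 (30 members) had KO medians of 0.20, -0.19, -0.10, -0.14 and -0.01 and WT medians of 0.23, -0.07, 0.04, -0.26 and 0.36. Corrected, the KO medians were 0.05, -0.19, -0.07, -0.11 and 0.02, and the KO range was 0.24 in place of 0.39. Ankib1, a ubiquitin ligase, had 1362, 1043, 1135, 1137 and 1289 normalized counts in KO and 1374, 1218, 1282, 1313 and 1695 in WT libraries. Slc25a40, a mitochondrial carrier, was 1.73-fold and Steap2, a metalloreductase, 1.76-fold higher in KO1 than in KO2. Fzd1, a Wnt receptor, was the least alike (correlation -0.18), with 284 in KO1 and 607 in KO2.

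Before correction, windows 2 and 3 of chromosome 5 had the largest negative differences between KO and WT means of windows with at least 10 members. In window 2 (50 members) the KO medians were 0.04, -0.24, 0.10, -0.09 and -0.18 and the WT medians 0.12, 0.09, 0.07, -0.08 and 0.10, a difference of -0.13. In window 3 (95 members) they were 0.03, -0.15, 0.07, -0.11 and -0.19 in KO and 0.04, 0.07, 0.10, 0.15 and 0.02 in WT, a difference of -0.15. KO2, KO4 and KO5 lay below all WT libraries in both windows, and KO1 and KO3 lay within the WT range. Corrected, the differences were -0.15 and -0.08. The second, -0.08, was then exceeded in windows 3, 5, 9 and 10 of chromosome 3 (-0.13, -0.15, -0.15 and -0.11). It was also exceeded in windows 1, 4 and 5 of chromosome 5 (-0.13, -0.10 and -0.14). Pus7, a pseudouridine synthase among the closest followers of window 2 of chromosome 5, had 639 to 941 in KO and 826 to 1224 in WT libraries. Nop14, a factor of ribosome assembly that followed window 3 of chromosome 5, had 342 to 453 in KO and 417 to 643 in WT.

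Over all 21 windows the median KO range was 0.35, against 0.22 over the 180 windows of the genome, and corrected 0.26 against 0.15. The median WT range of the same windows was 0.40, against 0.36 over the genome, and corrected 0.18 against 0.16. Before correction the WT libraries thus spread more than the KO libraries there, and after it less. A KO range over 0.5 was met in 2 windows (background 2.78%; a WT range over 0.5, 30%), those of Kpna4 and of Polr2b, and in 0 after correction (background 0.556%). Separation of all KO from all WT libraries occurred in 0 of 21 windows (background 4.44% higher and 0.556% lower in KO; after correction, background 7.22% and 3.89%). The KO mean minus the WT mean of the chromosome medians was -0.03 on chromosome 3 (0.01 without KO3, corrected -0.07) and -0.05 on chromosome 5 (-0.01 without KO2 or without KO5, corrected -0.04).

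Genes that the rule left out also placed KO2 and KO3 on opposite sides of 0. The 127 protein-coding genes of chromosome 3 with a mean log2 level of 3 to 6 had medians of -0.10, 0.10, -0.18, 0.00 and 0.12 in KO1 to KO5, and the 154 of chromosome 5 had 0.07, -0.17, 0.06, -0.05 and -0.19. The 334 genes of chromosome 3 that do not code for protein, at a level over 3, had 0.04, 0.12, -0.22, -0.05 and 0.01, and the 391 of chromosome 5 had 0.13, -0.15, 0.10, -0.10 and -0.16. KO2 was above KO3 on chromosome 3 and below it on chromosome 5 in each of these sets. Their KO ranges were 0.30 (rank 5 of 20 chromosomes) and 0.34 (rank 3) on chromosome 3 and 0.26 (rank 7) and 0.29 (rank 4) on chromosome 5. Corrected, they were 0.27 (rank 4) and 0.30 (rank 2) on chromosome 3 and 0.27 (rank 5) and 0.30 (rank 1) on chromosome 5. Their WT ranges were 0.40 and 0.28 on chromosome 3 and 0.10 and 0.19 on chromosome 5. Some of these genes overlap members, whose reads cannot be told apart without strand, and all come from the same libraries.

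Compared gene by gene, 0 of 1256 members differed between KO and WT in limma (background 0.00557%, 1 of 17940 genes tested) or in edgeR (background 0.00557%), with Benjamini-Hochberg adjustment at 0.05. At an unadjusted limma p under 0.05 were 24 members higher in KO (1.91%, background 2.83%) and 58 lower (4.62%, background 3.67%). DESeq2 called 10 of 1254 (0.797%, background 0.677%), of which 9 were lower and 1 higher in KO. The fitted difference was above 0 in 446 of 1256 members (35.5%), against 48.9% of all genes tested, with medians of -0.07 and -0.01. With GC and length trends removed the shares were 48.6% and 56.2%. All genes tested include low genes and genes that do not code for protein, so neither pair of shares compares genes of like level. The median fitted difference was -0.06 on chromosome 3 and -0.09 on chromosome 5. With the library medians of genes over the level removed, the differences of the chromosome medians were smaller, -0.03 and -0.05.

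Of the 10, Rab25, Fgfbp1 and Slc4a4 had the smallest adjusted p in DESeq2. Rab25, an epithelial regulator of vesicle recycling, had 29.4, 15.9, 80.1, 32.7 and 23.6 normalized counts in KO and 256, 106, 313, 208 and 56.5 in WT libraries, a log2 difference of -2.31 ± 0.49 (SE, limma adjusted p = 0.372; DESeq2 adjusted p = 0.00115). Only KO3 and WT5 kept its groups from separating. Fgfbp1, a carrier that releases fibroblast growth factors, had 69.9 to 120 in KO and 177 to 518 in WT libraries, with no overlap (-1.48 ± 0.29, limma adjusted p = 0.306). Slc4a4, a sodium bicarbonate cotransporter, had 84.7 to 162 in KO and 193 to 673 in WT libraries, also with no overlap (-1.69 ± 0.36, limma adjusted p = 0.372). Rab25 is itself one of the 17 carcinoma and epithelial markers, whose mean level was 7.61 to 8.84 in KO and 8.68 to 9.82 in WT libraries, and their part in these differences was not tested.

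Elovl6, which elongates fatty acids, had 727 to 1332 normalized counts in KO and 1341 to 2459 in WT libraries (-0.90 ± 0.22). Tbx15, a transcription factor of mesenchyme (-0.67 ± 0.18), Tspan2, a tetraspanin (-0.90 ± 0.24), Syde2 (-0.53 ± 0.15), Zfp518b, a zinc finger protein (-1.06 ± 0.26), and 1110002E22Rik (-1.97 ± 0.40) completed the lower group. Limma's adjusted p for these 6 genes ran from 0.318 to 0.482. 1110002E22Rik shares 465 exonic bases with Gm5105. Cxcl9, an interferon-induced chemokine for T cells, was the one higher, with 1420, 2300, 1921, 2397 and 3617 in KO and 696, 1304, 1473, 897 and 1066 in WT libraries (1.08 ± 0.26, limma adjusted p = 0.415), and its groups overlapped through KO1 and WT3. The list of T and NK cell markers was at 5.52 to 7.04 in KO and 4.76 to 5.74 in WT libraries, and its part was not tested.

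The libraries did not overlap in 3 members higher in KO (background 0.686%) and 16 lower (background 0.736%). The 3, named after their values were seen, were Rhoh, a GTPase of blood cells (165 to 221 normalized counts in KO, 114 to 158 in WT), Rnf34, a ubiquitin ligase (392 to 442, WT 336 to 386), and Pilra, a receptor of myeloid cells (394 to 525, WT 238 to 342). All 3 lie on chromosome 5. Of the 16, 7 lie on chromosome 3 and 9 on chromosome 5.

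Gene clusters and families of both chromosomes were read from lists. The guanylate-binding proteins, GTPases induced by interferon, form a cluster on each chromosome. The fitted difference was above 0 in 5 of 5 genes on chromosome 3 (median 0.49) and 6 of 6 on chromosome 5 (median 0.76), and 0 of the 11 passed in limma, edgeR or DESeq2, with 2 on chromosome 3 and 3 on chromosome 5 at an unadjusted limma p under 0.05. Gbp2b had 2199, 3916, 2501, 2682 and 3924 normalized counts in KO and 1587, 1504, 3034, 1713 and 2574 in WT libraries (0.57 ± 0.25, limma adjusted p = 0.748). Gbp5 (0.71 ± 0.31) and Gbp3 (0.49 ± 0.24) were similar. Gbp8 had 647, 631, 824, 557 and 421 in KO and 309, 190, 614, 203 and 430 in WT libraries (0.93 ± 0.31, limma adjusted p = 0.634), and Gbp10 a difference of 0.82 ± 0.37. In each of these genes WT3 was the highest WT library, above all KO libraries in Gbp10 and within their range in the others. Of the cluster genes not named so far, WT3 was also above all KO libraries in Gbp4 (6483, at most 5512 in KO), Gbp6 and Gbp9 of chromosome 5. It was not in Gbp11, Gbp2 or Gbp7. The copies are similar enough that reads can be split between them, Gbp8 shares 61 exonic bases with Gbp4, and Gbp10 shares 1792 with Gm43302. Among KO libraries the members of chromosome 3 were highest in KO2 (median deviation 0.61) and those of chromosome 5 in KO3 (0.86).

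The CXC chemokines of chromosome 5, ligands for receptors on leukocytes, had a fitted difference above 0 in 9 of 10 genes tested (median 0.76). Only Cxcl9 passed, and only in DESeq2. Cxcl10 had 243, 280, 270, 239 and 429 normalized counts in KO and 111, 200, 268, 231 and 192 in WT libraries (0.56 ± 0.25), and it shares 133 exonic bases with Art3. The difference of Ppbp, a platelet chemokine at a low level, was 1.24 ± 0.51. The OAS genes, sensors of double-stranded RNA that are also induced by interferon, showed 1 of 8 above 0 and 7 below (median -0.13), and 0 passed. Their member median was highest in WT3 (1.17).

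The S100 genes of chromosome 3, small calcium-binding proteins, showed 5 of 11 above 0 and 6 below (median -0.08). S100a9, a product of neutrophils, had 193 to 736 normalized counts in KO and 69.8 to 830 in WT libraries (1.102 ± 0.65). S100a14, an epithelial member at a level below the rule, had 3.75 to 23.5 in KO and 29.7 to 191 in WT libraries (-2.16 ± 0.54, limma adjusted p = 0.415). The 11 epidermal differentiation genes in the table were all fitted below 0 (median -3.00, 8 at an unadjusted limma p under 0.05, 0 called by limma, edgeR or DESeq2), and 0 of them were members. Flg2, filaggrin 2 of the cornified skin layer, was at 0 in all KO libraries and in WT1 and WT4, and at 77.4, 716 and 815 in WT2, WT3 and WT5. Those are the libraries with keratinocyte markers.

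The claudins of chromosome 5, proteins of tight junctions, were fitted below 0 in 4 of 4 genes tested (median -0.78, 0 called by limma, edgeR or DESeq2). Cldn4 had 2050, 464, 3408, 1825 and 622 normalized counts in KO and 2386, 1148, 2843, 5056 and 1591 in WT libraries (-0.82 ± 0.53). Cldn3 had 93.7, 21.6, 246, 127 and 78.6 in KO and 177, 208, 339, 615 and 99.7 in WT (-1.44 ± 0.58). Both genes were lowest in KO2 and highest in WT4, and KO3 was the highest KO library, as it was for the carcinoma markers, whose part was not tested. EGF family ligands showed 3 of 5 above 0 and 2 below (median 0.38). Btc, betacellulin, had 6.56 to 19.4 in KO and 10.9 to 31.9 in WT libraries (-1.05 ± 0.40, limma adjusted p = 0.691). The receptor tyrosine kinases showed 5 of 9 above 0 and 4 below (median 0.11), with 0 called.

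Cancer genes of the list showed 14 of 35 above 0 and 21 below (median -0.12, 0 called by limma, edgeR or DESeq2). Ect2, an exchange factor needed for cytokinesis, had 1376, 1217, 790, 1256 and 1276 normalized counts in KO and 1945, 1426, 1292, 1464 and 2464 in WT libraries (-0.52 ± 0.22). Prkci, an atypical protein kinase C further along chromosome 3, had 956, 784, 661, 834 and 895 in KO and 1043, 888, 1020, 1269 and 1278 in WT (-0.41 ± 0.17). KO3 was lowest in both. The cancer genes of chromosome 3 that were members (13) had medians of 0.09, 0.04, -0.21, -0.04 and 0.14 in KO1 to KO5, and those of chromosome 5 (17) had 0.27, -0.12, 0.11, 0.02 and -0.23.

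Subunits of multi-subunit housekeeping complexes, such as ribosomes, proteasomes and respiratory complexes, showed 12 of 21 above 0 on chromosome 3 (median 0.07) and 9 of 24 on chromosome 5 (median -0.09), with 0 called by limma, edgeR or DESeq2. Rpl22l1, a ribosomal protein paralog, had 527, 1020, 702, 1007 and 1196 normalized counts in KO and 573, 740, 376, 355 and 594 in WT libraries (0.75 ± 0.26). Psmc2, an ATPase of the proteasome, had 1106, 996, 1092, 1119 and 1246 in KO and 1468, 1629, 1090, 1560 and 1288 in WT (-0.33 ± 0.16). The corrected medians of these subunits were -0.24, 0.11, -0.18, 0.10 and 0.21 in KO1 to KO5 on chromosome 3 and -0.10, -0.19, 0.02, 0.06 and 0.12 on chromosome 5. KO2 was above KO3 on chromosome 3 and below it on chromosome 5. On chromosome 3, however, KO1 was the lowest and KO5 the highest, in place of KO3 and KO2 among all members. KO1 and KO5 did not keep the order of the other members of chromosome 5 either.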

How the data were processed

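The authors deposited one table of gene-level signal: normalized read counts in 18047 rows for 10 libraries. Of these, 35 rows are spike-in controls (0.151% to 0.545% of reads) and were left out. All values (100%) divided into whole reads (tolerance 0.0001 of a read), which were recovered. Per the submitters' processing notes, bcl2fastq 2.17 and genome build GRCm38 were used. The aligner, the counter and the use of strand or molecular identifiers are not given in the sources used here. Groups follow the labels, which tie no library to a named mouse, so p-values measure only the spread between these libraries.

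Deviations used a pseudocount of 1. KO and WT were compared with limma 3.58.1 in R 4.3.3, using log2(normalized count + 1) and a mean-variance trend, over 17940 genes with a mean of at least 10, with Benjamini-Hochberg adjustment over all of them. Fold changes of low genes are understated on this scale. edgeR 4.0.16 and DESeq2 1.42.0 on recovered reads were alternatives, and the limma script was tested on simulated data. Splines of GC content and log2 length (5 degrees of freedom each, patsy 1.0.2) were removed for corrected values.

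The members, lists and windows were chosen with earlier results of these data known. Described were the 6 windows with the widest KO range and the 3 with the largest difference between KO and WT. Named in each were members from the 3 most like the median of the others, the 1 least like it and the 2 most abundant, besides members called by limma or DESeq2 and genes of each list among its 3 smallest limma p. The targeted gene's values are not reported here. WT2 and WT5 share a number in their names. Their chi-square per degree of freedom, 147, lay within the 39.1 to 183 of WT pairs, and they were kept as 2 replicates. That value cannot show whether they are samples of the same tumour, in which case they would not be independent. Depth limits the low genes, for which 3 reads equal 2.17 to 4.22 normalized counts, counting error only.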

Additional observations from a re-analysis of the deposited data

Results flagged for a closer look

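Of 102 groups of 5 libraries examined, 10 had a library far from the others, with a gap above 0.71 of the group's range. For groups not chosen by their values, chance gives about 1 in 20. These windows and genes were chosen partly by their values, so the 10 cannot be set against that rate. Among window medians, KO3 stood below the other KO libraries in window 5 of chromosome 3 (-0.44, next KO1 at -0.03) and in window 9 (-0.31, next KO4 at -0.02). WT4 stood below the other WT libraries in window 2 of chromosome 5 (-0.0752, next WT3 at 0.07). Among normalized counts, KO3 was apart for Rab25 (80.15, next KO4 at 32.7) and Ect2 (790.2, next KO2 at 1217). 1110002E22Rik was high in KO2 (87.22, next KO5 at 37.54) and in WT2 (429.9, next WT5 at 182.8). KO5 was high for Cxcl10 (428.7, next KO2 at 280.4). WT3, the library with the most keratinocyte marker RNA, was high for Gbp10 (565.1, next WT5 at 237.1) and S100a14 (191.3, next WT5 at 45.42).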

How the results depend on the processing

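The count of called members was 0 in limma under each alternative run and 0 in edgeR, and 10 in DESeq2, where 10 named genes passed. Windows with a KO range over 0.5 (2 as defined) numbered 1 with genes of a log2 level over 8, 5 with genes of 3 to 6, 0 with window means, 0 after GC and length correction, 1 without WT2, WT3 and WT5, and 0 to 2 when 1 library was left out. The WT range was 0.0876 on chromosome 3 and 0.0570 on chromosome 5 after correction, and 0.0717 on chromosome 5 without WT2, WT3 and WT5. Leaving out 1 library gave KO ranges of 0.135 to 0.283 on chromosome 3 and WT ranges of 0.175 to 0.323 on chromosome 3 and 0.0668 to 0.121 on chromosome 5. Same-numbered libraries did not deviate together: correlations were 0.02, 0.10, 0.52, 0.03 and -0.23, and only number 3 correlated best with its own number. With the number as a replicate block, 0 members were called, 2 windows did not overlap, 1 had a KO range over 0.5, and the KO range was 0.154 on chromosome 3 (WT 0.154) and 0.129 on chromosome 5. A block of 2 libraries makes both ranges equal by construction. Libraries without the unexplained name prefix gave KO ranges of 0.269 and 0.296, an alternative chosen after seeing the data, as were all alternatives for chromosome medians. The remaining 182 values for these results were counted as unchanged. For called members this meant a count of 0, and for windows a count equal or close to that as defined. For chromosome medians it meant a move of less than the SD between libraries. Depth was lowest in KO1 and KO3, and no difference between single libraries has a replicate.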
